A study of Mus musculus with 25 samples.

Results

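Kineothrix is a genus of the bacterial family Lachnospiraceae, and its amplicon sequence variants (ASVs, distinct 16S rRNA gene sequences left after error removal) were followed through the fecal bacteria of mice. An ASV was taken as Kineothrix when the genus rank of the deposited taxonomy read Kineothrix. This held for 148 of the 1555 ASVs in the table, out of 643 ASVs in the whole family, and every one of the 148 carried the same species name, Kineothrix alysoides. The samples were 25 fecal libraries from C57BL/6 mice, read as long 16S amplicons on a PacBio instrument, with 5 libraries in each of the groups OVX+FMT, OVX+PBS, OVX+GEX, OVX and Sham. OVX usually stands for ovariectomy, PBS for a buffered saline and FMT for fecal microbiota transplantation. Every group except Sham carried OVX. The study is described as one of estrogen-deficient mice given or not given a traditional medicine, and GEX is left as the labels write it. The labels do not name the donors of the transplants, the age of the mice, or their cages and litters. They enter every mouse as male, which is at odds with ovariectomy, so the sex is not stated here. Nothing in the labels says whether mice of a group shared a cage, and the p-values below measure only the spread between these libraries.

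Kineothrix is known as a strictly anaerobic gut bacterium that ferments sugars and forms butyrate, the short-chain fatty acid that cells of the colon lining use as fuel. Lachnospiraceae are among the main families of butyrate producers in the gut of mice and humans, and many of their members live on plant fiber or on the sugars that other bacteria release from it. One bacterial genome often carries several copies of the 16S gene, and these copies can differ from each other, so the number of ASVs is not a number of strains. A share of 16S counts shows neither which genes the bacteria carried nor how much butyrate was formed. In relative data of this kind, fewer Kineothrix cells and more cells of other bacteria cannot be told apart.

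Kineothrix held 13002 of the 300831 counts in the table, which is 4.32%. It ranked 6 of 110 named genera by mean share over the libraries (4.68%) and 2 of 110 by number of ASVs, with 9.52% of all ASVs. Library totals ran from 8498 to 22404 counts with a median of 10123. Totals of at least 17367 counts occurred in 5 libraries (Sham replicates 3 and 4, OVX+PBS replicate 1, OVX+FMT replicates 1 and 5), while the other 20 had at most 11252, and the differences from Sham in share, richness and share of the family are also given within the shallower 20. Over the 25 libraries the correlation of the total with the Kineothrix share was -0.229 (Pearson r; Spearman rho = -0.133) and that with the rarefied Kineothrix richness 0.00444 (Pearson r).

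The share of Kineothrix in the library counts was lower on average in each OVX group than in Sham, but none of these differences passed adjustment. In OVX+FMT, Kineothrix took 0.589%, 1.43%, 0.715%, 10.3% and 0.329% of the counts in replicates 1 to 5. In OVX+PBS the values were 3.60%, 1.55%, 4.76%, 1.41% and 0.509%. The OVX+GEX libraries held 8.01%, 8.58%, 3.34%, 4.99% and 1.99%. A single OVX+FMT library, replicate 4, lay above all OVX+PBS and OVX+GEX libraries, while the other 4 OVX+FMT libraries lay below every OVX+GEX library. The OVX libraries held 2.04%, 9.23%, 6.45%, 1.94% and 0.923% Kineothrix. The Sham libraries held 9.10%, 7.77%, 4.81%, 4.19% and 18.5%. Each OVX group overlapped with Sham, and the lowest Sham library stood above 4 of 5 OVX+FMT libraries, 4 of 5 OVX+PBS libraries, 2 of 5 OVX+GEX libraries and 3 of 5 OVX libraries. Counting error was small beside these differences: the 95% Wilson interval was 0.259% to 0.419% in the lowest library, OVX+FMT replicate 5, and 17.7% to 19.3% in the highest, Sham replicate 5, and it covers counting error only.

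Group means were 2.67% ± 4.28 in OVX+FMT, 2.37% ± 1.75 in OVX+PBS, 5.38% ± 2.87 in OVX+GEX, 4.12% ± 3.57 in OVX and 8.87% ± 5.75 in Sham (SD, n = 5 each). The order of the means was therefore Sham, OVX+GEX, OVX, OVX+FMT and OVX+PBS, and each mean differed from the next by less than the larger of their SDs. The difference against Sham was -6.20 percentage points for OVX+FMT (exact permutation p = 0.0714, adjusted p = 0.25), -6.51 for OVX+PBS (exact permutation p = 0.0159, adjusted p = 0.111), -3.49 for OVX+GEX (exact permutation p = 0.262, adjusted p = 0.458) and -4.76 for OVX (exact permutation p = 0.135, adjusted p = 0.315). Exact tests of 5 against 5 libraries run over 252 splits, where 0.00794 is the smallest p possible, and adjustment is over 7 comparisons. They are two-sided, except that the test of turnover further below uses the upper tail. Tests on fewer libraries have fewer splits, and their smallest possible p can be higher. OVX+GEX exceeded OVX by 1.27 points (exact permutation p = 0.548, adjusted p = 0.639), OVX+FMT exceeded OVX+PBS by 0.307 points (exact permutation p = 0.944), and OVX+PBS differed from OVX by -1.75 points (exact permutation p = 0.365, adjusted p = 0.511). Within the 20 shallower libraries the difference from Sham was -7.64 points for OVX+FMT (adjusted exact permutation p = 0.489), -9.73 for OVX+PBS, -6.40 for OVX+GEX and -7.67 for OVX, with an adjusted exact permutation p of 0.167 for each of the last 3. Without Sham replicate 5, the highest library, the difference was -3.79 points for OVX+FMT, -4.10 for OVX+PBS, -1.09 for OVX+GEX and -2.35 for OVX, with adjusted exact permutation p-values of 0.5, 0.167, 0.639 and 0.63 in that order. Without OVX+FMT replicate 4, the difference of OVX+FMT from Sham was -8.11 points (adjusted exact permutation p = 0.0833). Its difference from OVX+PBS was then -1.60 points (adjusted exact permutation p = 0.292).

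**Figure D1:**
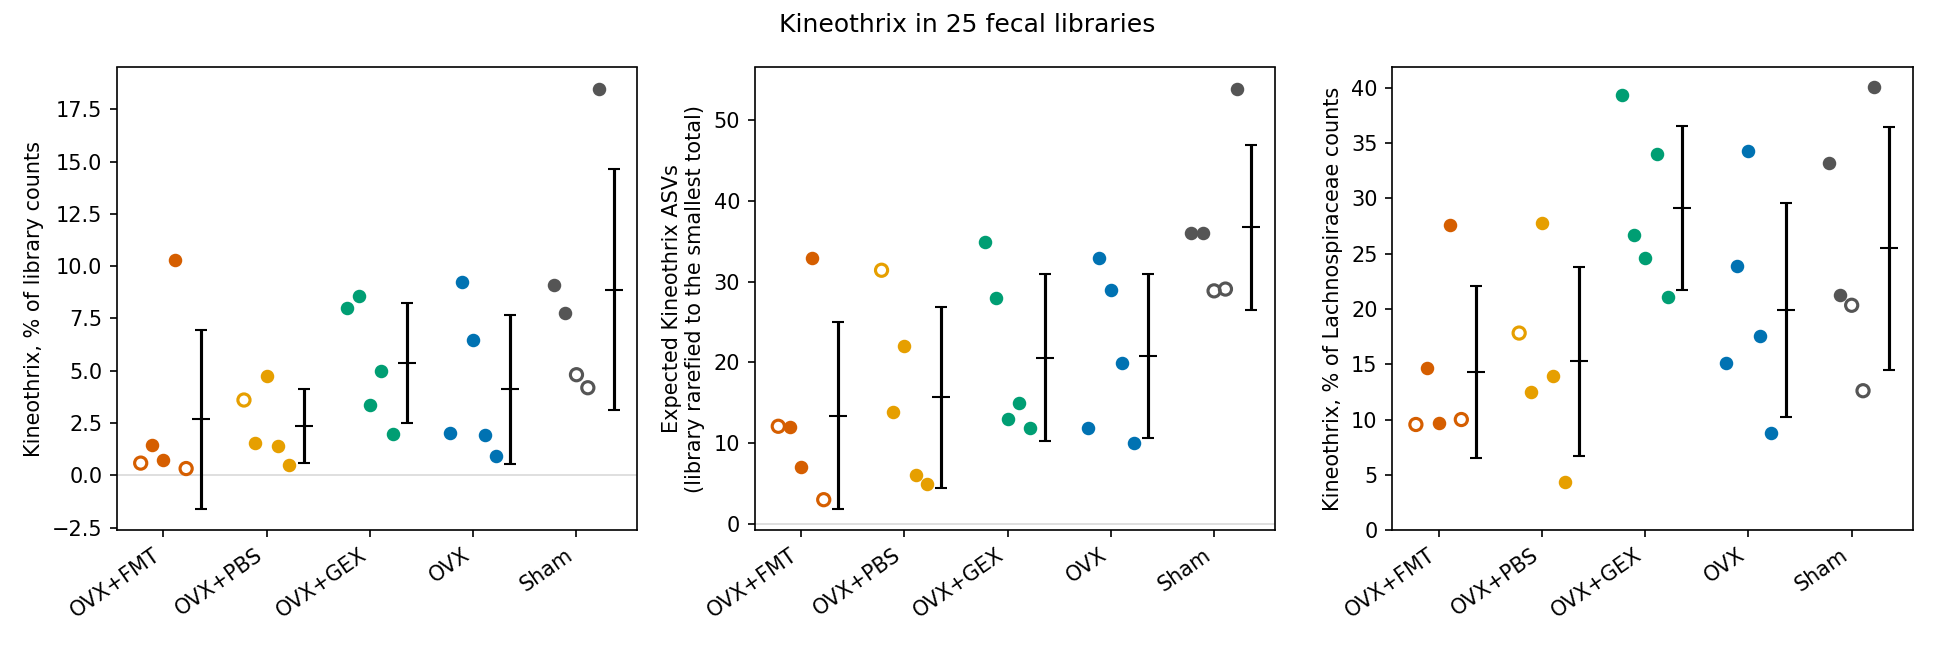
Each point is 1 library and the bar beside each group is the mean ± SD of its 5 libraries. The panels show the Kineothrix share of library counts in percent, the expected number of Kineothrix ASVs in 8498 reads, and the Kineothrix share of Lachnospiraceae counts in percent; open circles are the 5 libraries with more than 15000 counts. The OVX+FMT library at 10.3% stands apart from the other 4 at 0.329% to 1.43%, and the Sham libraries lie between 28.9 and 53.9 ASVs.

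The number of different Kineothrix ASVs was also lower on average in every OVX group than in Sham. Richness is given here as the number of Kineothrix ASVs expected when each library is cut down to 8498 reads, the smallest total. It was 12.1, 12.0, 7.0, 33.0 and 3.0 ASVs in the OVX+FMT libraries. OVX+PBS held 31.4, 13.9, 22, 6.0 and 5.0 ASVs. The OVX+GEX libraries held 34.98, 28.0, 13.0, 15.0 and 11.9 ASVs. In each of these 3 groups 1 library reached the range of Sham and the others had at most 28.0 ASVs. OVX held 11.9, 33.0, 29.0, 19.9 and 9.97 ASVs. The Sham libraries held 35.99, 35.98, 28.9, 29.1 and 53.9 ASVs, and the poorest of them had more Kineothrix ASVs than 15 of the 20 libraries of the OVX groups.

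Mean richness was 13.4 ± 11.6 ASVs in OVX+FMT, 15.7 ± 11.2 in OVX+PBS, 20.6 ± 10.3 in OVX+GEX, 20.7 ± 10.2 in OVX and 36.8 ± 10.2 in Sham (SD, n = 5 each). The difference from Sham was -23.4 ASVs for OVX+FMT (exact permutation p = 0.0238), -21.1 for OVX+PBS (exact permutation p = 0.0238), -16.2 for OVX+GEX (exact permutation p = 0.0317) and -16.0 for OVX (exact permutation p = 0.0397). After adjustment over the 7 comparisons each of these 4 exact permutation p-values was 0.0694, above the threshold of 0.05. Within the 20 shallower libraries the differences from Sham were -24.6 ASVs for OVX+FMT (adjusted exact permutation p = 0.175), -30.2 for OVX+PBS, -21.4 for OVX+GEX and -21.2 for OVX (adjusted exact permutation p = 0.0833 for each of the last 3). There every library of the OVX groups (at most 34.98 ASVs) lay below every Sham library (at least 35.98). For OVX+FMT so few libraries remained that the test could not pass the threshold. OVX+GEX and OVX differed by -0.163 ASVs (exact permutation p = 1), OVX+FMT and OVX+PBS by -2.25 (exact permutation p = 0.754, adjusted p = 0.88), and OVX+PBS and OVX by -5.08 (exact permutation p = 0.46, adjusted p = 0.644). Richness was also set against that of the whole library. As a percentage of the library's expected ASVs, Kineothrix made up 5.09% ± 3.62 in OVX+FMT, 6.67% ± 2.87 in OVX+PBS, 8.54% ± 2.45 in OVX+GEX, 8.02% ± 3.31 in OVX and 10.4% ± 3.26 in Sham (SD, n = 5 each), with adjusted exact permutation p-values of 0.333 to 0.583 for the 4 comparisons with Sham.

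Richness was also computed at an equal number of Kineothrix reads. When each library was cut to the same 65 Kineothrix reads, which left out 1 OVX+PBS library with fewer, 11.4 ± 7.48 ASVs were expected in OVX+FMT (n = 5), 15.4 ± 7.79 in OVX+PBS (n = 4), 16.3 ± 6.31 in OVX+GEX (n = 5), 15.8 ± 5.53 in OVX (n = 5) and 24.0 ± 2.88 in Sham (SD, n = 5). The differences from Sham kept their sign, at -12.6 ASVs for OVX+FMT, -8.65 for OVX+PBS, -7.71 for OVX+GEX and -8.25 for OVX. Their adjusted exact permutation p-values were 0.0833 for OVX+FMT and OVX and 0.0972 for OVX+PBS and OVX+GEX. Across the 25 libraries the share and the rarefied richness went together, with Pearson r = 0.91 and Spearman rho = 0.898. Both measures come from the same counts and the same libraries, and the group differences are part of that relation.

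The weight of single ASVs within the genus was described by the share of the top ASV and by an effective number of ASVs. Both vary with the number of ASVs as well as with evenness. Neither was computed at an equal number of Kineothrix counts, so evenness itself was not compared. The most abundant Kineothrix ASV held 27.6% ± 8.41 of the Kineothrix counts in OVX+FMT, 20.9% ± 8.96 in OVX+PBS, 23.8% ± 12.4 in OVX+GEX, 18.8% ± 4.77 in OVX and 12.8% ± 2.16 in Sham (SD, n = 5 each). These shares are descriptions without a test. The top ASV was ASV_35 in 3 of 5 Sham libraries, and in OVX+FMT it was a different ASV in each library. The effective number of ASVs, the exponential of the Shannon index, was 9.66 ± 6.29 in OVX+FMT, 12.5 ± 8.70 in OVX+PBS, 14.0 ± 8.12 in OVX+GEX, 13.8 ± 5.61 in OVX and 24.4 ± 4.70 in Sham (SD, n = 5 each). Over the 25 libraries this number went together with the Kineothrix share of counts (Pearson r = 0.791). Among OVX+FMT libraries replicate 5 was the poorest, with 65 Kineothrix counts in 3 ASVs, while Sham replicate 5 was the richest of all, with 1873 counts in 54 ASVs.

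**Figure D2:**
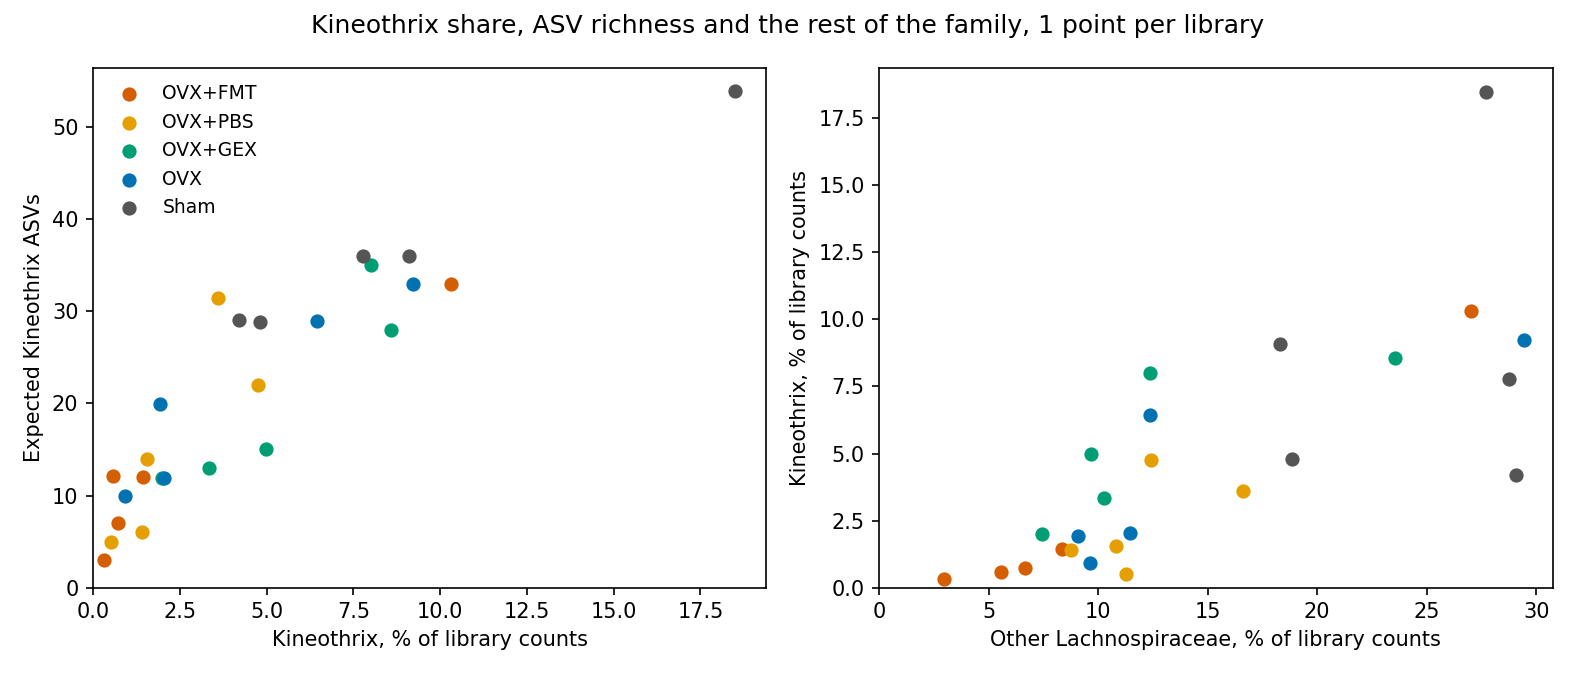
Each point is 1 library, coloured by group. The left panel sets the expected number of Kineothrix ASVs against the Kineothrix share of library counts in percent (r = 0.91), and the right panel sets the Kineothrix share against the share of all other Lachnospiraceae in percent (r = 0.76); OVX+FMT replicate 4 lies with the Sham libraries in both.

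Kineothrix was then measured as a share of all Lachnospiraceae counts, its own included. An equal shift of the whole family does not enter this measure. Kineothrix made up 9.55%, 14.6%, 9.69%, 27.6% and 10% of the Lachnospiraceae counts in OVX+FMT. In OVX+PBS it made up 17.8%, 12.5%, 27.7%, 13.9% and 4.32%. The OVX+GEX values were 39.3%, 26.7%, 24.6%, 34.03% and 21.1%, all above 4 of the 5 OVX+FMT libraries and 4 of the 5 OVX+PBS libraries. In OVX it made up 15.1%, 23.9%, 34.3%, 17.5% and 8.76%. The Sham values were 33.2%, 21.3%, 20.3%, 12.6% and 40.03%, and they overlapped with those of every other group.

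Within the family the order of the group means changed: OVX+GEX stood highest at 29.1% ± 7.39, followed by Sham at 25.5% ± 10.97, OVX at 19.9% ± 9.69, OVX+PBS at 15.3% ± 8.54 and OVX+FMT at 14.3% ± 7.73 (SD, n = 5 each). Against Sham the differences were -11.2 points for OVX+FMT, -10.2 for OVX+PBS, 3.65 for OVX+GEX and -5.58 for OVX, with adjusted exact permutation p-values of 0.315, 0.315, 0.639 and 0.6 in that order. OVX+GEX exceeded OVX by 9.24 points (exact permutation p = 0.135, adjusted p = 0.315), OVX+FMT differed from OVX+PBS by -0.961 points (exact permutation p = 0.833) and OVX+PBS from OVX by -4.65 points (exact permutation p = 0.429, adjusted p = 0.6). Among the 20 shallower libraries the difference of OVX+GEX from Sham had the other sign, at -2.37 points (adjusted exact permutation p = 0.714), beside -14.2 points for OVX+FMT, -16.9 for OVX+PBS and -11.6 for OVX (adjusted exact permutation p = 0.35 for each). Without Sham replicate 5 the differences were -7.56 points for OVX+FMT, -6.60 for OVX+PBS, 7.29 for OVX+GEX and -1.95 for OVX (adjusted exact permutation p of 0.472 to 0.833). All other Lachnospiraceae together held 10.1% ± 9.66 of the library counts in OVX+FMT, 12.0% ± 2.92 in OVX+PBS, 12.7% ± 6.34 in OVX+GEX, 14.4% ± 8.50 in OVX and 24.5% ± 5.46 in Sham (SD, n = 5 each). Their share and that of Kineothrix went together over the 25 libraries (Pearson r = 0.76, Spearman rho = 0.822), which is a description of libraries that share one total each. In OVX+FMT replicate 4 and OVX replicate 2 both were high, with 27.0% and 29.4% other Lachnospiraceae beside 10.3% and 9.23% Kineothrix.

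In the fit of all genera with edgeR's quasi-likelihood test, Kineothrix passed the threshold in none of the 7 comparisons. The fit used counts summed per genus for the 81 genera with at least 3 counts in at least 5 libraries. For OVX+FMT against Sham the log2 fold change was -1.40 (SE 0.73, edgeR adjusted p = 0.276), where 1.23% of the genera tested were called. For OVX+PBS against Sham it was -1.43 (SE 0.73, edgeR adjusted p = 0.238), with 1.23% of genera called as well. For OVX+GEX against Sham it was -0.12 (SE 0.72, edgeR adjusted p = 0.977), against 4.94% of genera called, and for OVX against Sham -0.64 (SE 0.72, edgeR adjusted p = 0.872), against 0.0% of genera called. The median log2 fold change of all genera tested was 0.13, -0.48, -0.02 and 0.15 in these 4 comparisons, so the estimate for Kineothrix lay below it in each.

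Between the OVX groups no genus was called by edgeR, 0.0% in each comparison. At an unadjusted p under 0.05 there were 5 genera (6.17%) for OVX+GEX against OVX, 12 (14.8%) for OVX+FMT against OVX+PBS and 11 (13.6%) for OVX+PBS against OVX, and Kineothrix was not among them. DESeq2 called 0, 0 and 1 genera in these 3 comparisons and limma on centred log-ratios 1, 1 and 0, again without Kineothrix. The Kineothrix log2 fold change was 0.52 (SE 0.72, edgeR adjusted p = 0.936) for OVX+GEX against OVX, 0.03 (SE 0.72, edgeR adjusted p = 0.995) for OVX+FMT against OVX+PBS and -0.79 (SE 0.72, edgeR adjusted p = 0.589) for OVX+PBS against OVX. The edgeR result for OVX+FMT rested on 1 library. Without OVX+FMT replicate 4 the log2 fold change against Sham was -2.94 with an edgeR adjusted p of 0.00429, and that against OVX+PBS was -1.51 with an edgeR adjusted p of 0.263. The share of counts did not pass against Sham without that library (adjusted exact permutation p = 0.0833). Over all alternatives the edgeR, DESeq2 and limma adjusted p for OVX+FMT against Sham ran from 0.00429 to 0.69.

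**Figure D3:**
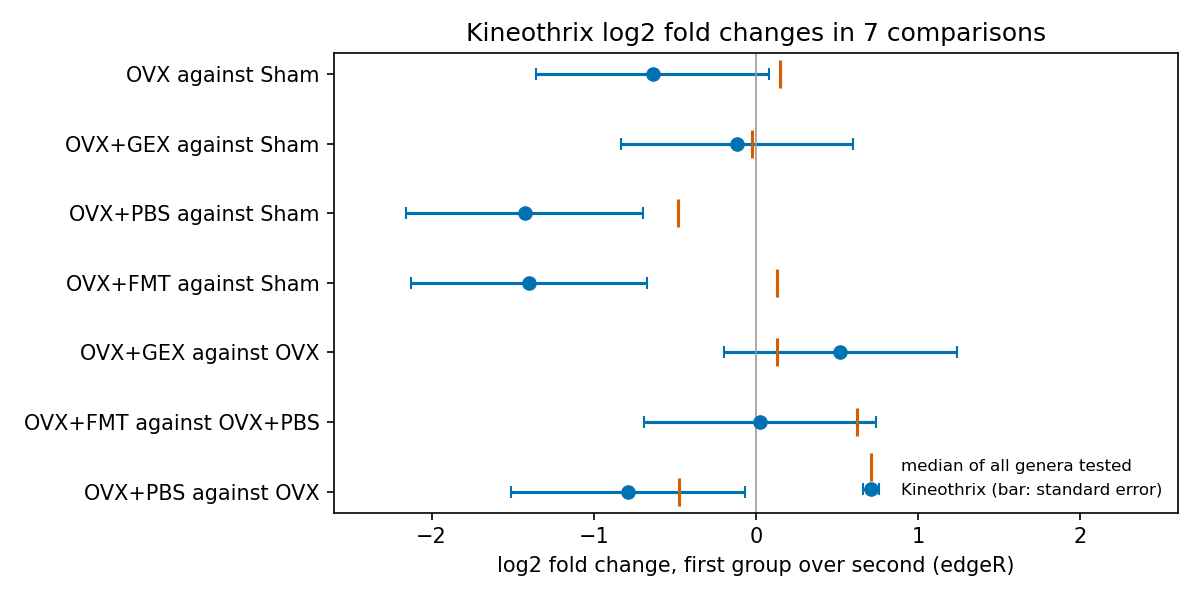
Blue points are the Kineothrix log2 fold changes from edgeR in 7 comparisons, first group over second, with bars of 1 standard error; orange ticks are the medians of the 81 genera tested. The estimates run from -1.43 for OVX+PBS against Sham to 0.52 for OVX+GEX against OVX, and no adjusted p is under 0.05.

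Most Kineothrix ASVs were seen in few mice. Of the 148, 50 (33.8%) occurred in a single library and held 3.92% of the Kineothrix counts, the median was 2 libraries, and 13 occurred in 10 or more. The other Lachnospiraceae had 214 of 495 ASVs (43.2%) in a single library, and all ASVs together 608 of 1555 (39.1%). The deposited table held no value of 1, so an ASV with a single read in a library is not seen here. ASV_35 was the most widespread, in 23 of 25 libraries with 10.6% of the Kineothrix counts, and it was missing only from OVX+FMT replicate 5 and OVX+PBS replicate 5. The next most widespread, ASV_99, occurred in 15 libraries, and ASV_54, ASV_111 and ASV_177 in 14 each. ASV_177 was named for this tie after its values were seen. It had 3, 3, 12, 7 and 0 counts in OVX+FMT, 0 in all 5 OVX+PBS libraries, 4, 22, 7, 0 and 0 in OVX+GEX, 0, 80, 18, 4 and 0 in OVX and 3, 2, 24, 9 and 0 in Sham.

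Of the Kineothrix ASVs of a group, 71.4% in OVX+FMT, 58.0% in OVX+PBS and 61.9% in OVX+GEX occurred in 1 library of that group. The share was 70.8% in OVX and 48.0% in Sham. These shares, and the ASVs in all 5 libraries of a group below, are given for Kineothrix only. Without the values over all ASVs they do not show a trait of Kineothrix. OVX+FMT held 49 of the 148 ASVs over its 5 libraries, OVX+PBS 50, OVX+GEX 63, OVX 72 and Sham 98. None of the 49 in OVX+FMT was absent from all other groups, and the ASVs seen in one group alone were 8 of those in OVX+PBS (16.0%), 6 in OVX+GEX (9.52%), 15 in OVX (20.8%) and 31 in Sham (31.6%). Over all 1555 ASVs the shares seen in one group alone were 15.5% in OVX+FMT, 18.1% in OVX+PBS, 15.4% in OVX+GEX, 18.0% in OVX and 27.9% in Sham, and the differences from these shares were not tested. Single libraries weighed in these counts: Sham replicate 5 alone held 13 ASVs seen in no other library, and OVX replicate 3 held 7. Of the 31 seen in Sham alone, 8 occurred in 2 or more Sham libraries. No ASV was present in all 5 OVX+FMT libraries or in all 5 OVX+PBS libraries. ASV_35 and ASV_54 were in all 5 OVX+GEX libraries, ASV_35 and ASV_99 in all 5 OVX libraries, and ASV_35, ASV_54 and ASV_97 in all 5 Sham libraries. Kineothrix ASVs seen in all 5 groups numbered 15 (10.1%), and these held 43.9% of the Kineothrix counts. Over all ASVs 204 (13.1%) were in all 5 groups, with 81.3% of all counts.

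OVX+FMT shared 40 Kineothrix ASVs with Sham, which is 81.6% of the OVX+FMT list and 40.8% of the Sham list. OVX+PBS shared 34 with Sham (68.0% of its own list and 34.7% of that of Sham), OVX+GEX 39 (61.9% and 39.8%) and OVX 40 (55.6% and 40.8%). OVX+FMT and OVX+PBS shared 27 ASVs, which is 55.1% of the OVX+FMT list and 54.0% of the OVX+PBS list. OVX+GEX and OVX shared 38, which is 60.3% of the OVX+GEX list and 52.8% of the OVX list. The 4 comparisons with Sham use the same Sham libraries, and the overlaps were not tested. Over all ASVs, those shared with Sham were 64.2% of the OVX+FMT list, 63.2% of that of OVX+PBS, 62.1% of that of OVX+GEX and 63.1% of that of OVX, and 46.1%, 40.7%, 43.2% and 49.3% of the Sham list. For all ASVs the overlap of OVX+FMT and OVX+PBS was 51.3% of the OVX+FMT list and 57.3% of the OVX+PBS list, and that of OVX+GEX and OVX 59.6% of the OVX+GEX list and 53.0% of the OVX list.

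Turnover within the genus was measured on the shares of each ASV among the Kineothrix counts of a library. Bray-Curtis distances, which run from 0 for the same makeup to 1 for no shared ASV, averaged 0.85 between the libraries of OVX+FMT, 0.851 within OVX+PBS, 0.788 within OVX+GEX, 0.814 within OVX and 0.637 within Sham (10 pairs each). There were 24 pairs at a distance of 1, and all of them involved OVX+FMT replicate 5, with 65 Kineothrix counts, or OVX+PBS replicate 5, with 45. Without these libraries the mean was 0.77 within OVX+FMT and 0.757 within OVX+PBS (6 pairs each). Whether their few Kineothrix counts made these distances large was not tested. Libraries of one group differed widely in their Kineothrix ASVs, and the closest pair of all, OVX+PBS replicate 3 and Sham replicate 3 at 0.428, came from different groups. The part of the squared distances that lay between groups, R2, was 0.17 for OVX+FMT against Sham and 0.175 for OVX against Sham (exact permutation p = 0.0714 and adjusted p = 0.25 for both). R2 was 0.129 for OVX+PBS against Sham (exact permutation p = 0.278, adjusted p = 0.444) and 0.124 for OVX+GEX against Sham (exact permutation p = 0.254, adjusted p = 0.444). With each library left out in turn, R2 ran from 0.154 to 0.228 for OVX+FMT against Sham (adjusted exact permutation p of 0.111 to 0.611). For OVX+PBS against Sham it ran from 0.112 to 0.193 (adjusted exact permutation p of 0.167 to 0.706). OVX+GEX against OVX gave 0.128 (exact permutation p = 0.317, adjusted p = 0.444), OVX+FMT against OVX+PBS 0.0809 and OVX+PBS against OVX 0.0788 (exact permutation p = 0.794 for both). On presence alone, with Jaccard distances, the adjusted exact permutation p against Sham was 0.0833 for OVX+FMT, 0.0556 for OVX+PBS, 0.0833 for OVX+GEX and 0.0556 for OVX, and none passed the threshold.

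**Figure D4:**
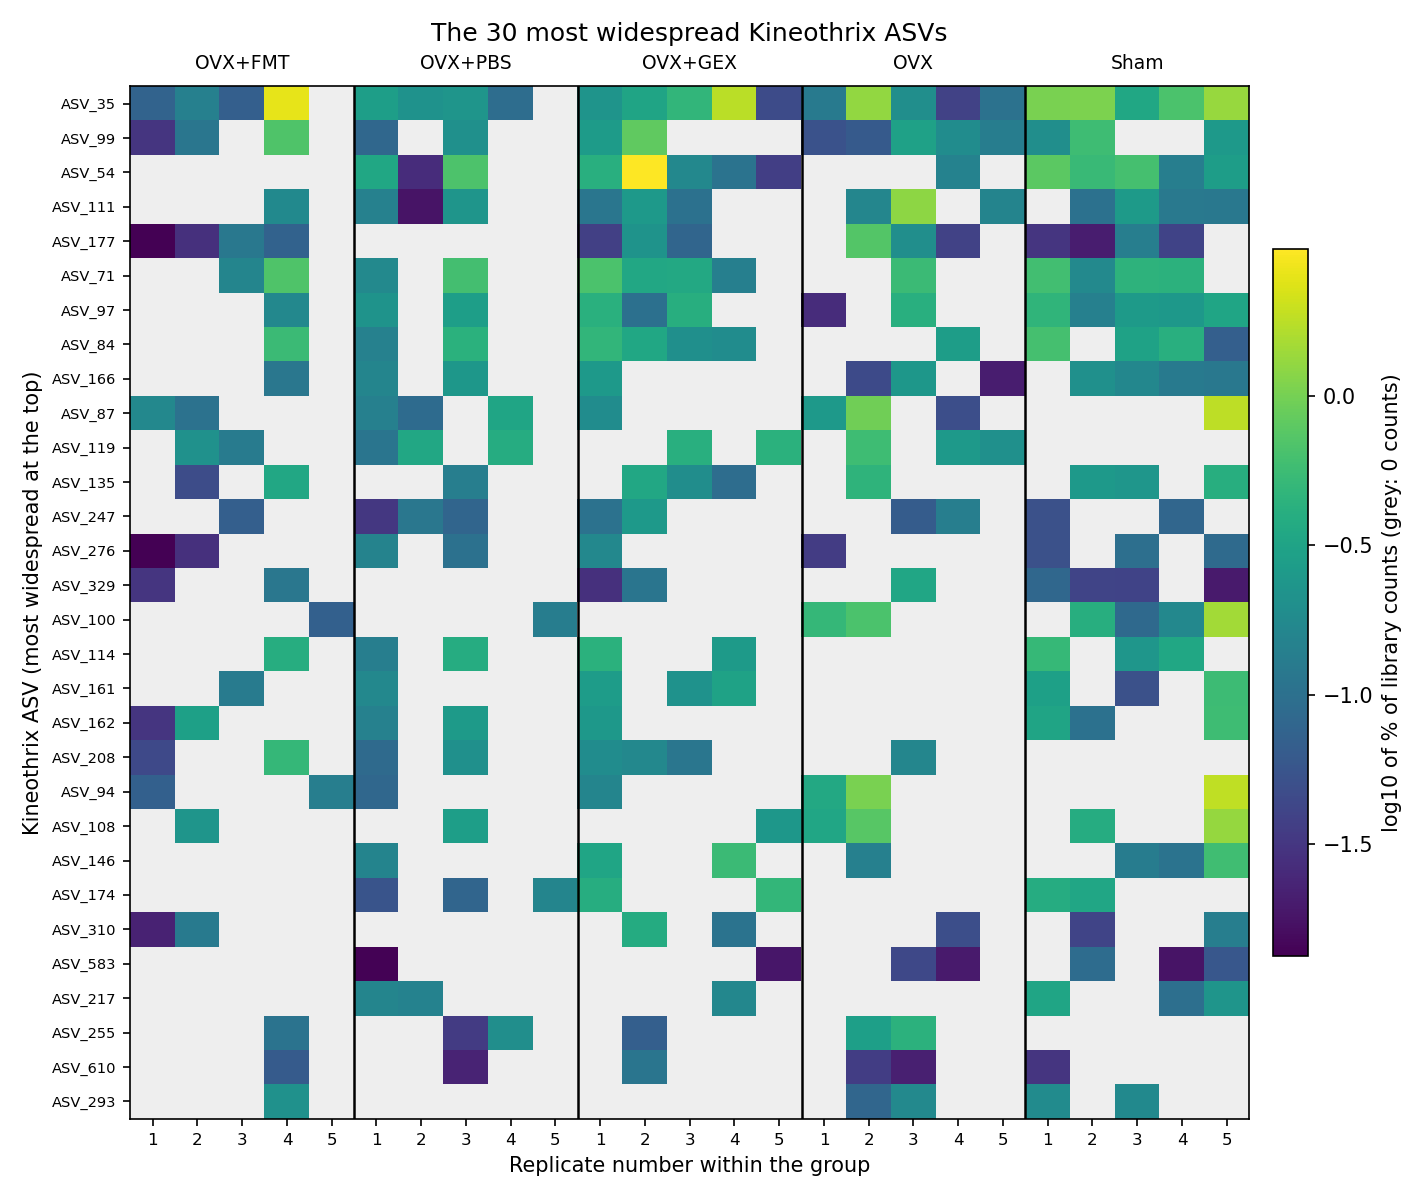
Each row is 1 of the 30 Kineothrix ASVs seen in the most libraries and each column 1 library, ordered by group and replicate number. The colour gives log10 of the percent of library counts, and grey marks a count of 0. ASV_35 fills all columns but OVX+FMT 5 and OVX+PBS 5, ASV_54 is grey in all 5 OVX+FMT columns, and ASV_119 is grey in all 5 Sham columns.

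Among single ASVs, 33 of the 148 reached 3 counts in 5 libraries and were tested with the 346 other ASVs that did; the remaining 115 were not tested. Counts of single ASVs varied widely between libraries of a group, and an ASV that was not called is not shown to be unchanged. ASV_54 was the only Kineothrix ASV that passed the threshold in any comparison. It had 0 counts in all 5 OVX+FMT libraries, against 76, 52, 109, 31 and 28 counts in the Sham libraries. The Sham mean was 0.471% ± 0.261 of library counts (SD, n = 5), and a count of 0 allows a mean share of up to 0.0237% in OVX+FMT at 3 counts per library. ASV_54 was therefore at least 19.9-fold lower in OVX+FMT than in Sham (edgeR adjusted p = 0.0294 over 379 ASVs), a comparison in which 1.06% of all ASVs tested were called and 0.792% were called lower. The call was lost without OVX+FMT replicate 1, 2, 3 or 5 or without Sham replicate 3 or 4 (edgeR adjusted p of 0.0555 to 0.0758), and within the shallower libraries (edgeR adjusted p = 0.357), and over all alternatives the adjusted p ran from 0.00151 to 0.357.

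ASV_54 varied among the other groups too. It had 75, 3, 59, 0 and 0 counts in OVX+PBS, 44, 309, 15, 9 and 4 counts in OVX+GEX, and 0, 0, 0, 15 and 0 counts in OVX. OVX thus held it in 1 of 5 libraries and OVX+GEX in all 5. For OVX+FMT against OVX+PBS the edgeR adjusted p was 0.0661, for OVX+GEX against OVX 0.202 and for OVX against Sham 0.186. In OVX+GEX replicate 2 this ASV made up 36.1% of the Kineothrix counts.

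ASV_35 was present in nearly every mouse but uneven in amount. It had 17, 15, 7, 242 and 0 counts in OVX+FMT, 62, 24, 20, 8 and 0 in OVX+PBS, and 24, 32, 43, 150 and 5 in OVX+GEX. OVX held 14, 141, 18, 4 and 10 counts and Sham 101, 104, 60, 147 and 135. Its mean share of library counts was 0.568% ± 1.11 in OVX+FMT, 0.164% ± 0.115 in OVX+PBS, 0.568% ± 0.687 in OVX+GEX, 0.347% ± 0.521 in OVX and 0.887% ± 0.387 in Sham (SD, n = 5 each). Its log2 fold change against Sham was -0.78 (SE 1.31) for OVX+FMT, -2.44 (SE 1.37) for OVX+PBS, -0.77 (SE 1.31) for OVX+GEX and -1.42 (SE 1.33) for OVX, with edgeR adjusted p-values of 0.267 to 0.985.

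ASV_87 and ASV_94 formed a pair that was concentrated in 2 libraries. ASV_87 had 182 counts in Sham replicate 5 and 105 in OVX replicate 2, and 0 in the other 4 Sham libraries. ASV_94 had 188 and 115 counts in the same libraries and was also 0 in the other 4 Sham libraries. The 2 ASVs occurred together in 6 of the 11 libraries with either, with a ratio of 0.7 to 2.38 and a median of 1.07. ASV_71 and ASV_84 occurred together in 10 of 15 libraries with either, at a ratio of 0.75 to 1.78 with a median of 1.22 (Spearman rho = 0.764 over the 25 libraries). Of the ASVs compared in pairs, ASV_54 and ASV_84 were most often together, in 73.3% of libraries with either. Their ratio ranged more widely, from 0.333 to 9.09. Whether such pairs are gene copies of one genome was not tested. ASV_108, in 7 libraries, peaked in the same libraries as ASV_87 and ASV_94, with 132 counts in Sham replicate 5 and 83 in OVX replicate 2.

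ASV_71 had 0, 0, 16, 65 and 0 counts in OVX+FMT, 38, 0, 53, 0 and 0 in OVX+PBS, 70, 35, 32, 12 and 0 in OVX+GEX, 0, 0, 50, 0 and 0 in OVX, and 58, 17, 79, 99 and 0 in Sham. Like ASV_84, it was thus in 4 of 5 libraries of OVX+GEX and of Sham and in 1 of 5 of OVX. For OVX+GEX against OVX its log2 fold change was 1.57 (SE 1.93, edgeR adjusted p = 0.986) and that of ASV_84 was 2.30 (SE 2.05, edgeR adjusted p = 0.819). ASV_99 had the opposite layout, with 0 counts in 3 of 5 OVX+GEX libraries against 6, 7, 28, 19 and 13 counts in OVX, while OVX+GEX replicates 1 and 2 held 28 and 81 counts (log2 fold change 0.83, SE 1.91, edgeR adjusted p = 1). ASV_111 was highest in OVX replicate 3, with 114 counts, and had at most 45 in any other library.

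ASV_119 was chosen after its values were seen, because it had 0 counts in all 5 Sham libraries. It passed the filter of 3 counts in 5 libraries through the OVX groups alone. Its direction against Sham was therefore fixed by the choice, and the p-values below do not allow for that. ASV_208, ASV_255 and ASV_405 were also tested and also had 0 counts in every Sham library. It had 0, 22, 13, 0 and 0 counts in OVX+FMT, 24, 39, 0, 33 and 0 in OVX+PBS, 0, 0, 37, 0 and 47 in OVX+GEX and 0, 63, 0, 26 and 20 in OVX, against 0 in all 5 Sham libraries. It was present in 10 of the 20 libraries of the OVX groups. Counts of 0 in Sham allow a mean share of up to 0.0244%. Against that limit the mean share was at least 2.77-fold higher in OVX+FMT (edgeR adjusted p = 0.113), 6.92-fold in OVX+PBS (edgeR adjusted p = 0.107), 7.0-fold in OVX+GEX (edgeR adjusted p = 0.149) and 8.48-fold in OVX (edgeR adjusted p = 0.158), and none passed the threshold.

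Counted over the 33 tested Kineothrix ASVs, edgeR called 1 for OVX+FMT against Sham and 0 in the other 6 comparisons, where 0.0% of all ASVs tested were called. For OVX+FMT against Sham 29 of the 33 estimates were lower, with a median log2 fold change of -1.62 against -0.45 over all 379 ASVs. For OVX+PBS against Sham 27 were lower (median -1.36, all ASVs -1.04), for OVX+GEX against Sham 22 (median -0.23, all ASVs -0.35) and for OVX against Sham 24 (median -0.83, all ASVs -0.28). Over all 379 ASVs, lower estimates numbered 228 for OVX+FMT, 246 for OVX+PBS, 230 for OVX+GEX and 214 for OVX against Sham. At an unadjusted edgeR p under 0.05, 9, 9, 5 and 10 of the 33 passed in these 4 comparisons, beside 19.0%, 25.6%, 18.2% and 17.2% of all ASVs. In OVX+GEX against OVX the median was 0.68 (all ASVs -0.07) and 10 passed unadjusted, in OVX+FMT against OVX+PBS -0.32 (all ASVs 0.49) and 10, and in OVX+PBS against OVX -1.02 (all ASVs -0.53) and 9, beside 19.3%, 21.1% and 24.8% of all ASVs. DESeq2 and limma on centred log-ratios each called 1 Kineothrix ASV for OVX+FMT against Sham, among 11 ASVs (2.9%) called by DESeq2 and 12 (3.17%) by limma. DESeq2 also called 1 for OVX+FMT against OVX+PBS, among 6 ASVs (1.58%).

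The genera whose levels ran most like that of Kineothrix were sought by Spearman correlation of centred log-ratios over the 25 libraries. They were Hungatella (rho = 0.798, placed in Clostridiaceae by the deposited taxonomy), Lacrimispora (0.767), Lachnoclostridium (0.671), Marvinbryantia (0.579) and Enterocloster (0.571), the last 4 of Lachnospiraceae. Hungatella, Lacrimispora, Lachnoclostridium and Enterocloster hold species once named Clostridium, and Marvinbryantia is known for forming acetate. Lachnoclostridium, the most abundant of the 5, held 1.32% ± 2.37 of counts in OVX+FMT, 1.29% ± 1.16 in OVX+PBS, 3.17% ± 3.53 in OVX+GEX, 3.47% ± 3.87 in OVX and 6.80% ± 3.46 in Sham (SD, n = 5 each). None of the 5 passed the threshold in any comparison; the lowest edgeR adjusted p was 0.0714, for Marvinbryantia in OVX+FMT against Sham (log2 fold change -4.19, SE 1.32). Among all 23 Lachnospiraceae genera tested, Kineothrix included, edgeR called 0 in every comparison, while at an unadjusted p under 0.05 there were 2 for OVX+FMT, 4 for OVX+PBS, 1 for OVX+GEX and 1 for OVX against Sham and 0 to 3 between the OVX groups. Over all 81 genera the unadjusted counts against Sham were 14 (17.3%) for OVX+FMT, 17 (21.0%) for OVX+PBS, 9 (11.1%) for OVX+GEX and 9 (11.1%) for OVX. Of the Lachnospiraceae estimates 18 were lower for OVX+FMT, OVX+PBS and OVX+GEX against Sham and 15 for OVX against Sham, with median log2 fold changes of -0.87, -1.49, -0.46 and -0.40, beside 0.13, -0.48, -0.02 and 0.15 over all genera. Lower estimates over all 81 genera numbered 36 for OVX+FMT, 50 for OVX+PBS, 41 for OVX+GEX and 37 for OVX against Sham.

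Kineothrix was also read beside other genera with butyrate-forming members. Of 21 such genera listed, 12 were in the table and 10 were tested, and Lawsonibacter was the only one called. It rose in OVX+FMT (log2 fold change 2.94, edgeR adjusted p = 0.042), OVX+PBS (3.06, edgeR adjusted p = 0.0288) and OVX+GEX (3.33, edgeR adjusted p = 0.0124) against Sham, where Kineothrix had estimates of -1.40, -1.43 and -0.12 and 1.23%, 1.23% and 4.94% of all genera were called. With plain library totals in place of TMM, no genus was called in these 3 comparisons. Lawsonibacter held 1.29% ± 1.18 of counts in OVX+FMT, 1.74% ± 0.368 in OVX+PBS, 2.10% ± 1.19 in OVX+GEX, 1.11% ± 0.586 in OVX and 0.333% ± 0.201 in Sham (SD, n = 5 each). Eubacterium, the other listed genus with a mean share above 1%, held 2.70% ± 2.69, 2.44% ± 1.17, 0.893% ± 0.196, 2.89% ± 2.09 and 3.23% ± 1.22 in the same order and passed in no comparison (lowest edgeR adjusted p 0.272, for OVX+GEX against OVX). The median log2 fold change of the 10 genera was -0.15 for OVX+FMT, -0.58 for OVX+PBS, -0.995 for OVX+GEX and 0.04 for OVX against Sham, beside 0.13, -0.48, -0.02 and 0.15 over all 81 genera. In these 4 comparisons 5, 5, 2 and 5 of the 10 estimates were higher, beside 45, 30, 39 and 44 of all 81 genera. The comparisons share the Sham libraries and are not independent.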

How the data were processed

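The authors deposited a table of read counts per ASV with a taxonomy of 7 ranks, converted from a BIOM file, per the file headers. Subread is the one tool in the submitters' processing notes, without version or role. For the denoiser, the primers, the reference taxonomy and any filter the entry is: not given in the sources used here. All deposited counts were whole, with 0 values of 1 and 464 of 2, for a reason no source states. Column names gave the sample of each column; 5 columns spelled OVX+GES were taken as OVX+GEX, whose titles are otherwise identical.

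The Kineothrix members, the taxon lists and the tests were chosen with earlier results of these data known. Named ASVs are the 8 with the highest mean share, those past the threshold, and up to 4 in the most libraries; named genera are the 5 most like Kineothrix and listed butyrate producers past the threshold or with a mean share of at least 1%. ASV_119 and other ASVs beyond these were picked once values were known.

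Counts per genus and per ASV with at least 3 counts in at least 5 libraries (81 genera, 379 ASVs) were tested with edgeR 4.0.16 (R 4.3.3; TMM, quasi-likelihood F test, all 25 libraries in 1 fit), adjusted by Benjamini-Hochberg over all features at a threshold of 0.05. Standard errors were taken from the F statistic. Shares, analytic rarefied richness at 8498 reads and the R2 between groups on Bray-Curtis distances were compared by exact permutation (Python 3.11.15, scipy 1.17.1) and adjusted over 7 comparisons; R2 used the upper tail. The main test functions were tried on simulated data. At the spread estimated from these data, the genus fit recovered part of the planted changes. The ASV fit did not recover even large ones, so few called ASVs do not show that ASVs were unchanged. Alternatives were other normalizations and filters, DESeq2 1.42.0, limma 3.58.1 on centred log-ratios (pseudocount 0.5), other distances, depths and denominators, only the groups compared, a replicate block and each library left out in turn; the 20 libraries under 15000 counts and richness as a percentage of the library's ASVs were added after seeing the data. Taxon names are those of relatives in an unstated database.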

Additional observations from a re-analysis of the deposited data

Results flagged for a closer look

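Within groups of 5 libraries, single libraries stood far from the other 4 in 9 of 36 checks of a measure in a group, judged by the gap to the nearest library over the group's range. The limit used marks about 1 in 20 groups by chance if values are normally distributed, which shares and counts need not be. The measures are not independent of each other, and single ASVs were checked only in groups without a count of 0. Whether 9 of 36 exceeds chance was not tested. OVX+FMT replicate 4 was 3 of them: it held 10.3% Kineothrix against 0.329% to 1.43% in the other OVX+FMT libraries, 27.6% Kineothrix among its Lachnospiraceae counts against 9.55% to 14.6%, and 27.0% other Lachnospiraceae against 2.96% to 8.34%. OVX replicate 2 held 29.4% other Lachnospiraceae against 9.10% to 12.4%, and its share of ASV_35 was 1.27% against 0.0395% to 0.196%. Sham replicate 5 had 53.9 expected Kineothrix ASVs, and the other Sham libraries had 28.9 to 35.99.

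In OVX+GEX a different library stood apart for each measure. Replicate 1 had 28.0 effective Kineothrix ASVs against 7.73 to 13.3, replicate 4 had 1.76% ASV_35 against 0.0464% to 0.484%, and replicate 2 had 3.10% ASV_54 against 0.0371% to 0.414%. The cause of these differences was not tested.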

How the results depend on the processing

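No alternative brought the Kineothrix share, its richness, its share of Lachnospiraceae or its turnover past adjustment in any comparison, and the 4 differences in richness and share of counts against Sham stayed negative throughout. Some of these alternatives could not pass whatever the values. The replicate block has a smallest exact p of 0.0625, and OVX+FMT against Sham in libraries under 15000 counts has too few splits. OVX+FMT against OVX+PBS had no stable direction. Its share difference was -0.592 without Duncaniella and Ligilactobacillus in the denominator and -1.001 as a centred log-ratio (log2 scale), and -1.60 to 0.905 leaving out 1 library; its richness difference was 5.60 in libraries under 15000 counts and -7.15 to 1.69 leaving out 1 library; its share of Lachnospiraceae was 2.69 in libraries under 15000 counts and -4.29 to 2.16 leaving out 1 library. Its log2 fold change was -0.39 with DESeq2 size factors and with DESeq2's Wald test, -0.087 with TMMwsp, -0.25 with no filter, -1.001 with limma, -0.33 with only the groups compared, -0.34 with the replicate block, and -1.51 to 0.36 leaving out 1 library. OVX+GEX against OVX turned to richness differences of 0.278 at 5000 reads, 1.82 for ASVs of 10 or more counts, 0.533 at fixed Kineothrix reads and 0.524 as percent of the library's ASVs, and ran from -3.76 to 2.89 leaving out 1 library. OVX+GEX against Sham gave -2.37 points of Lachnospiraceae in libraries under 15000 counts and log2 fold changes of -0.48 to 0.30 leaving out 1 library. OVX+FMT against Sham gave -2.94 to -0.98, and its called Kineothrix ASVs were 0 in libraries under 15000 counts and 0 to 1 leaving out 1 library; DESeq2 called 1 for OVX+FMT against OVX+PBS. The cause of these reversals was not tested. The smaller sets also held fewer libraries.

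Counts over all features moved more: genera called ran from 0 to 5 for OVX+GEX, 0 to 7 for OVX+PBS and 0 to 8 for OVX+FMT against Sham, and 0 to 2 elsewhere; ASVs called ran from 0 to 12 for OVX+FMT, 0 to 11 for OVX+PBS, 0 to 6 for OVX+GEX and 0 to 2 for OVX against Sham, and 0 to 6 between OVX groups. Whether replicate numbers pair the libraries was not settled. In no comparison did all 5 same-numbered pairs correlate over 0.1. Yet 4 of 5 did for OVX+GEX against Sham and against OVX over genera, and for OVX+FMT against Sham over Kineothrix ASVs. The same number was the best match in 4 of 5 libraries for OVX+GEX against Sham over genera (mean r 0.125, other numbers -0.0311). It was also the best match in 4 of 5 for OVX+FMT against Sham over Kineothrix ASVs (mean r 0.25, other numbers -0.0588). In all other comparisons it was the best match in 0 to 3 of 5. With the replicate block the richness differences against Sham had an adjusted exact permutation p of 0.219, where 0.0625 is the smallest exact p. The log2 fold change for OVX+FMT against Sham was then -1.98 (edgeR adjusted p = 0.147). Depth limits absence: the share compatible with 0 counts reached 0.0134% to 0.0353%, depending on the library.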
